A study of Rattus norvegicus with 16 samples.

Results

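The cardiac myosin heavy chains Myh6 (ENSRNOG00000025757.2) and Myh7 (ENSRNOG00000016983.5) are 2 of the 23918 genes counted in rat heart RNA. They were picked by Ensembl identifier, and the pairing of identifier and symbol came with that choice. The files and the reference tables pair no identifier with a symbol, so the names were not checked independently. The choice was made with earlier results of these libraries known, among them the level of Myh6 in each group. Levels and ratios of the chains between the groups are therefore given as a description, with no test.

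Hearts came from 16 adult male Wistar rats, 1 library per animal, in 3 groups. The 4 Control rats had no agent listed, and the labels do not say whether they received a sham injection. The 6 D55 rats had a single tail vein injection of streptozotocin at 55 mg/kg, and the 6 D100 rats had 100 mg/kg. Raised blood glucose was checked a day after the injection, and hearts drained of blood were taken after 4 days of follow-up. Streptozotocin kills pancreatic beta cells, the source of insulin, and so serves to model diabetes from insulin loss. The labels give the tissue as heart and do not say which chambers were used. The study's title asks how the severity of diabetes shows in cardiac gene expression, so each dose was set against Control and the doses against each other.

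Myosin heavy chain is the motor protein of the sarcomere's thick filament. It splits ATP and pulls on actin. The alpha chain, encoded by Myh6, works faster, and the beta chain, encoded by Myh7, works more slowly and uses less ATP for the force it holds. The healthy adult rat ventricle makes mostly the alpha chain. A shift towards the beta chain is known from the fetal heart, thyroid hormone deficiency, pressure overload and experimental diabetes in rodents.

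Among the protein-coding genes of the RefSeq gene table (GRCr8 assembly), Myh6 and Myh7 are neighbours. Cmtm5 lies on the Myh6 side, and Ngdn is among the next protein-coding genes on the Myh7 side. Myh6 and Myh7 each also carry a microRNA within their span on the same strand. The mature sequences are shown because these small RNAs come from the same transcription units as the chains; capitals mark the seed, bases 2 to 8 from the 5′ end, and the sequences are from RefSeq, GRCr8. The first is at chr15:32395568-32395585 within the Myh6 span and the second at chr15:32421648-32421665 within the Myh7 span, both on the minus strand, with the opposite arms below them. The fifth lies within Myh7b, a further myosin heavy chain gene on another chromosome.
rno-miR-208a-3p: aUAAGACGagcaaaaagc
rno-miR-208b-3p: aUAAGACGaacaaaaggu
rno-miR-208a-5p: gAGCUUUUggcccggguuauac
rno-miR-208b-5p: aAGCUUUUugcucgcguuau
rno-miR-499-5p: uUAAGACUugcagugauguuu

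The microRNAs from Myh6 and Myh7 had the same seed on the 3p arm, and they matched at 15 of 18 bases. Their 5p arms also shared a seed. The Myh7b microRNA shared bases 2 to 7 with both 3p arms and left them at base 8. None of these small RNAs was measured here: the libraries were made from polyadenylated RNA, and the files hold counts per gene. The promoter table gives for Myh6 a start that lies 1966 bases inside the outermost start in the gene table, and for Myh7 one that lies 1657 bases inside. Its windows around these starts are for that reason not the stretch before the outermost start, and no sequence or motif from them is given.

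Levels are given in CPM, counts per 1000000 after scaling each library total by the trimmed mean of M-values (TMM). Library totals were 26.2 to 48.3 M counts in Control, 18.5 to 48.4 M in D55 and 4.69 to 25.6 M in D100, where replicate F was the shallowest library. The smallest estimated count of a chain in any library was 1528, which carries a counting error of 2.56%, so counting error is small beside the differences between animals. The 10 most abundant genes other than the chains took 43.3 to 59.4% of the counts in Control and 53.4 to 69.0% in D100. In D55 they took 42.8 to 54.7% in replicates A, C, D and F but 30.1% in B and 30.4% in E. B and E were also the highest D55 libraries in both myosin chains, though Myh6 in E (5895 CPM) was near that in C (5010 CPM). Results that rest on D55 B and E are given with and without them. A heart sample holds several cell types, and fewer cells of a type cannot be told apart from less RNA per cell. Marker genes of atrial, ventricular and other cells could not be matched to the identifiers, so the labelled tissue was checked only by the chains themselves, which were present in all 16 libraries.

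Myh6, the fast alpha chain, was high in every Control and D55 heart and low in every D100 heart. It stood at 4234, 5394, 2186 and 2694 CPM in Control replicates 1 to 4. In D55 it stood at 2347, 11161, 5010, 2298, 5895 and 2843 CPM in replicates A to F. D55 replicates B and E lay above the highest Control heart, and the other 4 lay within the Control range. In D100 it stood at 148, 118, 290, 309, 214 and 734 CPM in replicates A to F. D100 overlapped neither of the other groups: its highest heart, replicate F, lay 2.98-fold below the lowest Control heart and 3.13-fold below the lowest D55 heart. How many of all genes separate groups as fully was not counted, so gaps between groups, here and below, have no background beside them. The mean was 3627 CPM ± 1465 (SD, n = 4) in Control and 4926 ± 3398 (SD, n = 6) in D55. In D100 it was 302 ± 225 (SD, n = 6).

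Myh7, the slow beta chain, was low in every Control heart and higher in every injected heart. Control replicates 1 to 4 stood at 228, 219, 174 and 140 CPM. D55 replicates A to F stood at 1121, 3720, 665, 692, 8327 and 1171 CPM. The lowest of these lay 2.92-fold above the highest Control heart, and replicates B and E again lay highest. D100 replicates A to F stood at 1574, 1716, 1540, 2016, 4155 and 3779 CPM, of which the lowest lay 6.75-fold above the highest Control heart. The D100 hearts fell inside the range of the D55 hearts, all 6 of them, and lay above the other 4 D55 hearts when B and E were left out. Means were 190 CPM ± 40.9 (SD, n = 4) in Control, 2616 ± 3022 (SD, n = 6) in D55; D100 averaged 2463 ± 1183 (SD, n = 6). Without D55 B and E the D55 mean was 912 CPM ± 271 (SD, n = 4).

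**Figure D1:**
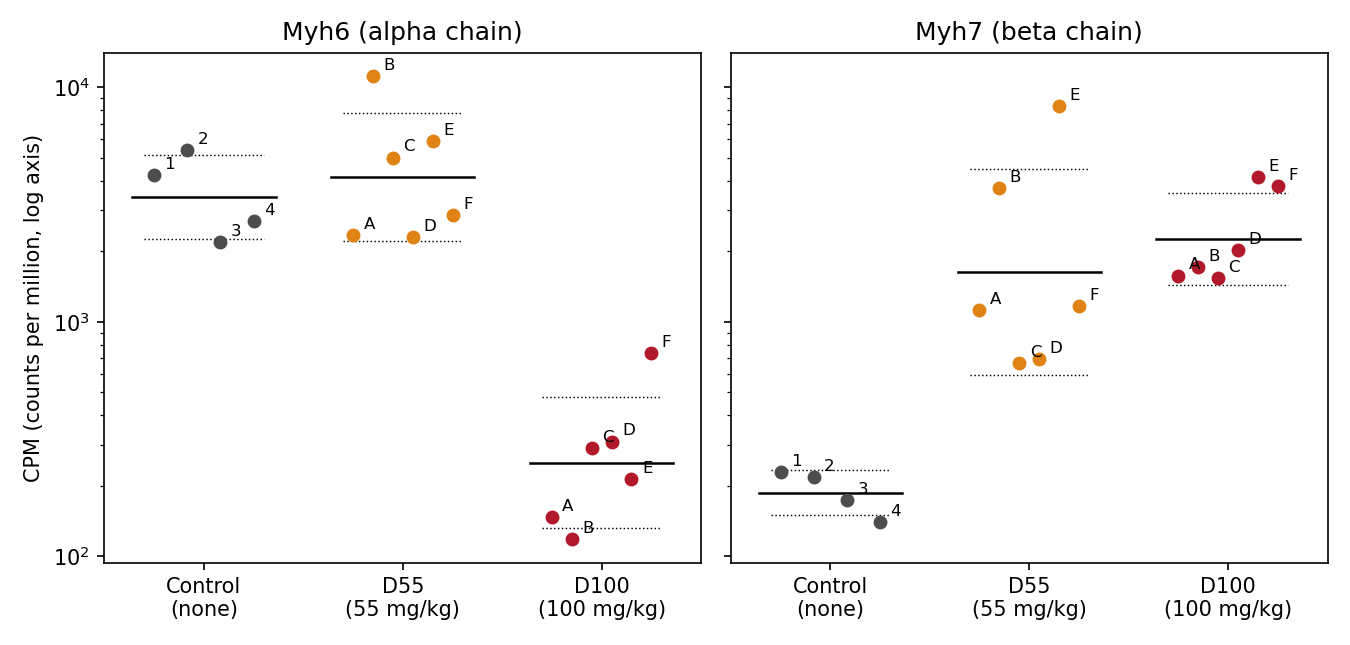
Level of Myh6 (left) and Myh7 (right) in each heart, in CPM on a log axis, by group and streptozotocin dose. Points are libraries with their replicate name, solid lines the mean of the log2 values and dotted lines 1 SD either side. Myh6 separates D100 (118 to 734 CPM) from the other groups, and Myh7 separates Control (140 to 228 CPM) from both doses.

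For D100 against Control, the quasi-likelihood fit over all 14175 tested genes put Myh6 at a log2 fold change of -3.59 (SE 0.53), 12.0-fold lower in D100. It put Myh7 at 3.70 (SE 0.72), 13.0-fold higher. Ordered by fold change, 14 tested genes fell further than Myh6 and 15 rose further than Myh7, while the median of all genes was -0.03. Both chains passed the adjusted threshold of 0.05 in edgeR, where 4.38% of all genes did, and both did without D55 B and E, where 10.8% of genes did. The chains were chosen with this comparison known, so their passing adds nothing to the description.

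For D55 against Control, the fitted log2 fold change of Myh6 was 0.44 (SE 0.52), which is smaller than its own error. Without D55 B and E it was -0.21 (SE 0.48), so its direction turned on those libraries. Myh7 stood at 3.78 (SE 0.72), or 13.8-fold. Without D55 B and E it was 2.26 (SE 0.35). The fitted fold follows the mean, which those hearts raise, while the median Myh7 level was 5.84-fold higher in D55 than in Control. Neither chain passed the threshold in edgeR with all libraries, where 0.0635% of all genes did. For Myh7 the call depended on the tool and the libraries. It passed with all 16 libraries in DESeq2, as did 0.621% of all genes. It also passed in limma-voom with quality weights, where libraries count unequally, as did 3.68%. It also passed in edgeR with the share of the 10 most abundant other genes as a covariate, as did 0.374%, without D55 D alone, as did 0.0635%, and without D55 B and E, as did 0.101%. Myh7 did not pass in edgeR under the other scalings and filters or in a fit of these groups alone. Nor did it pass without any 1 library other than D55 D. In the fit of these groups alone 1 gene passed, and without any 1 Control heart 0 genes did. Myh6 passed in none of these fits. The chains were chosen with this comparison known, so a pass adds nothing to the description.

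Between the doses, Myh6 was lower in D100, at a log2 fold change of -4.03 (SE 0.52), and at -3.37 (SE 0.45) without D55 B and E. Myh7 stood at -0.09 (SE 0.54) with all libraries and at 1.43 (SE 0.32) without D55 B and E. Its direction between the doses depended on the measure and on single libraries. With all libraries the median Myh7 level was 1.63-fold higher in D100 than in D55, while the ratio of the means was 0.942. The fitted value turned above 0 without D55 E alone (0.75) or D55 B alone (0.062), and also without D100 A (0.014), D100 B (0.0077) or D100 C (0.017) alone. Of the chains, 1 of 2 passed the threshold with all libraries (Myh6), against 35.6% of all genes, and 2 of 2 without D55 B and E, against 0.888%. B and E held the highest Myh7 levels of D55, so leaving them out had to raise the Myh7 value between the doses. The pass of Myh7 without them therefore adds nothing to the description. In limma-voom with quality weights and all libraries 2 of 2 passed, against 49.9%, with Myh7 higher in D100. These comparisons too were known when the chains were chosen. The comparisons share groups (Control stands in both dose comparisons), so their values are not independent of each other.

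**Figure D2:**
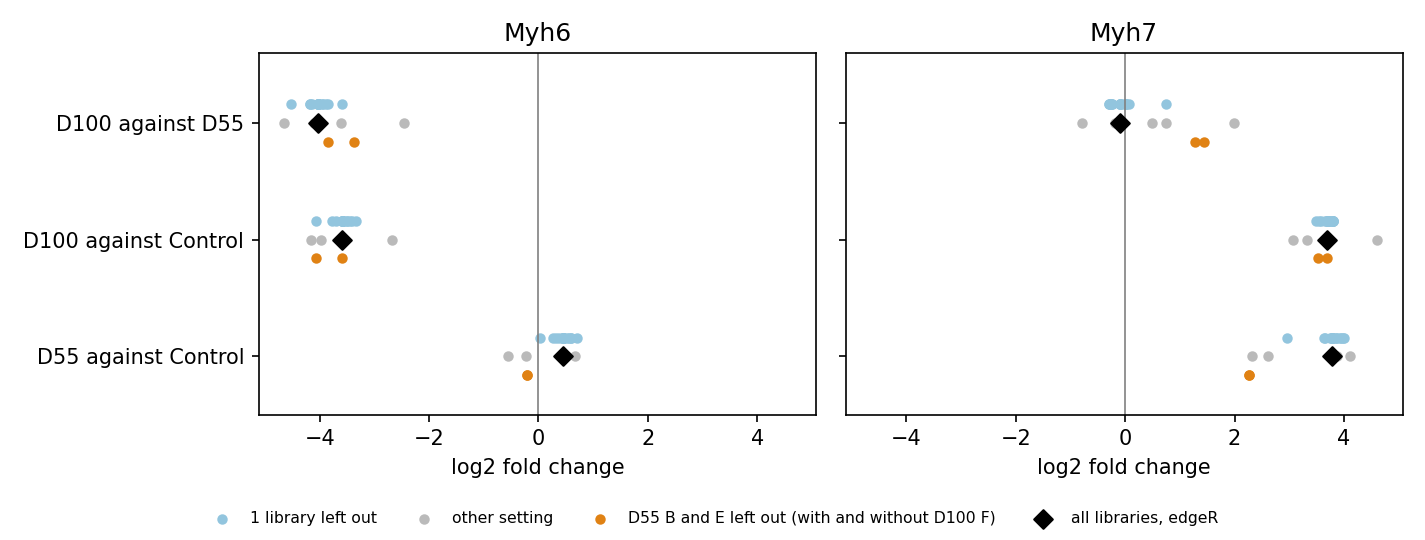
Fitted log2 fold change of Myh6 (left) and Myh7 (right) in each comparison under every analysis setting. Black diamonds show the edgeR fit with all libraries, blue points leave out 1 library, orange points leave out D55 B and E, with and without D100 F, and grey points are the other settings. Myh6 stays below 0 in both D100 comparisons and Myh7 above 0 in both comparisons with Control, while Myh6 in D55 against Control and Myh7 between the doses fall on both sides of 0.

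The Myh6 to Myh7 ratio within a heart does not depend on how libraries are scaled, since both values share 1 total. Counts also grow with transcript length, and no lengths of the annotation behind the counts were used. The ratio is therefore not one of molecules: length cancels when hearts are compared with each other, and a ratio of 1 marks equal CPM of the chains, not equal numbers of transcripts. Control hearts had ratios of 18.5, 24.6, 12.5 and 19.2 in replicates 1 to 4. D55 hearts had ratios of 2.09, 3.0, 7.53, 3.32, 0.708 and 2.43 in replicates A to F. D100 hearts had ratios of 0.0940, 0.0691, 0.189, 0.153, 0.0517 and 0.194 in replicates A to F. The 3 groups were fully ordered, with each Control heart above each D55 heart and each D55 heart above each D100 heart.

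The narrowest gaps were 1.66-fold, between Control 3 and D55 C, and 3.64-fold, between D55 E and D100 F. D55 E had the lowest ratio of its group. D55 B, which also stood apart in the levels, had a ratio of 3.0, near the group median of 2.71. The mean log2 ratio was 4.19 ± 0.40 (SD, n = 4) in Control, 1.35 ± 1.11 (SD, n = 6) in D55; in D100 it was -3.17 ± 0.80 (SD, n = 6). Without B and E the D55 mean was 1.75 ± 0.83 (SD, n = 4). Leaving out hearts cannot change the order of fully ordered groups, so this does not test that order.

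**Figure D3:**
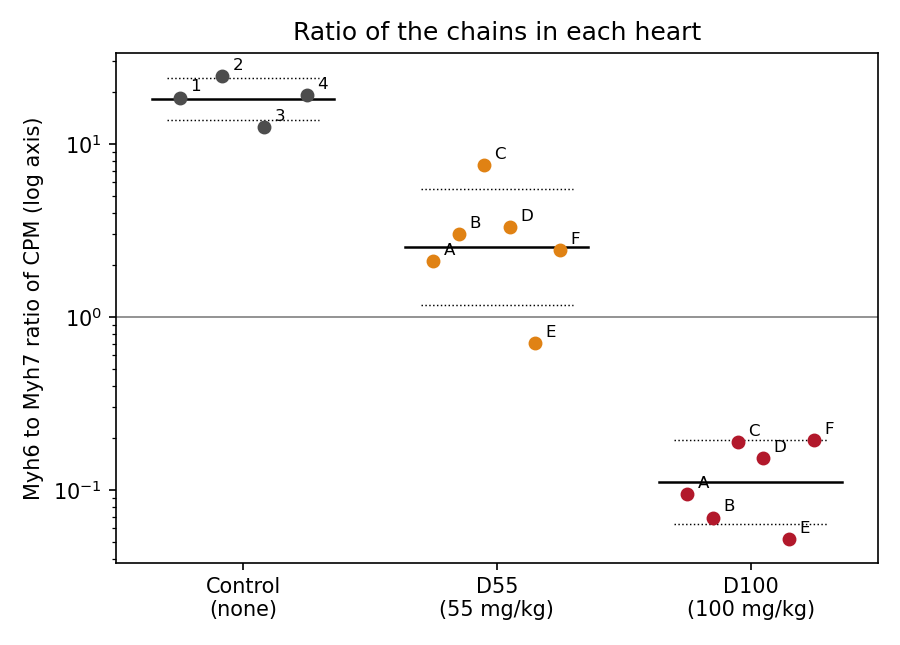
Ratio of Myh6 to Myh7 CPM in each heart, on a log axis, by group and dose; the grey line marks a ratio of 1, equal CPM not corrected for transcript length, solid lines the mean of the log2 ratios and dotted lines 1 SD either side. Control hearts lie between 12.5 and 24.6, D55 hearts between 0.708 and 7.53 and D100 hearts between 0.0517 and 0.194.

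Split by chain at TMM-scaled levels, the step from Control to D55 was mostly one of Myh7, and the step from D55 to D100 mostly one of Myh6. On the scale of mean log2 CPM, the ratio was lower in D55 than in Control by a difference of -2.84 (SE 0.50). Myh7 was higher by 3.12 (SE 0.62), and Myh6 differed by 0.28 (SE 0.47). From D55 to D100 the ratio differed by -4.52 (SE 0.56), with Myh6 at -4.05 (SE 0.53) and Myh7 at 0.47 (SE 0.65). Without D55 B and E the first step was 2.24 (SE 0.27) in Myh7 and -0.20 (SE 0.40) in Myh6. The second was then -3.56 (SE 0.46) in Myh6 and 1.35 (SE 0.34) in Myh7. Leaving out the D55 hearts highest in Myh7 had to raise that Myh7 value, and the D100 hearts highest in Myh7, E and F, were kept. Unlike the ratio, this split depends on scaling. It also depended on the model, while the ratio was not computed with the covariate or in another tool. Fitted values between the doses were -4.65 in Myh6 and -0.78 in Myh7 without scaling factors. With the share of the 10 most abundant other genes as a covariate they were -2.46 and 1.99, which are of like size. This share itself differed between the doses, with a mean of 43.6% in D55 and 60.8% in D100. The covariate fit therefore cannot fully separate share from dose. For D55 against Control the covariate fit gave -0.22 in Myh6 and 2.62 in Myh7. From Control to D100 the ratio differed by -7.36 (SE 0.38), a 164-fold change in which Myh6 (-3.76, SE 0.48) and Myh7 (3.59, SE 0.31) had like sizes. These SEs give the precision of a difference of group means, computed from the spread between animals, and belong to no test.

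**Figure D4:**
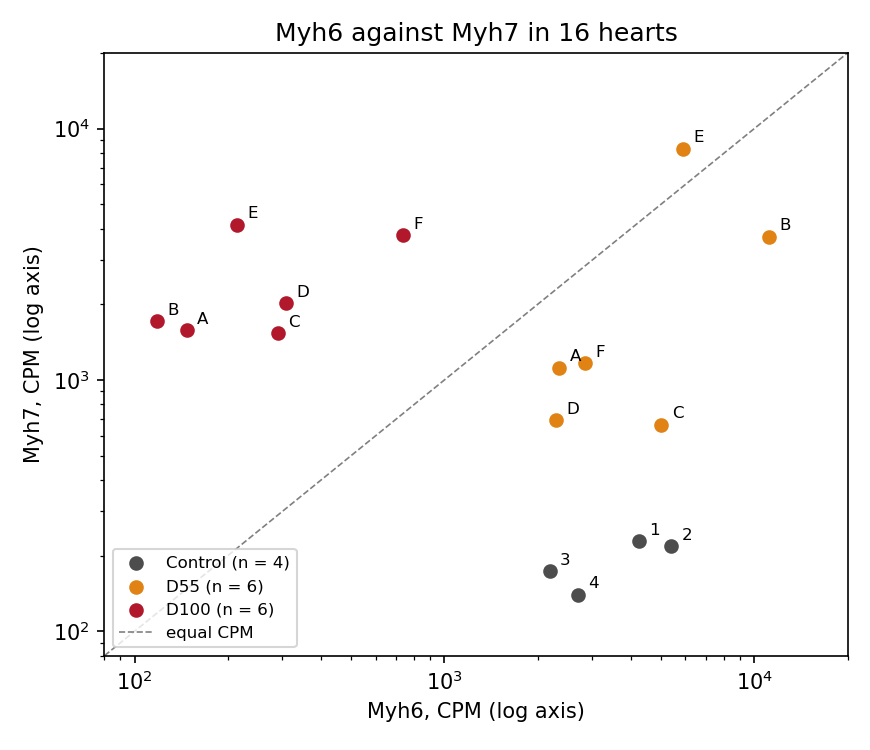
Myh6 against Myh7 CPM in the 16 hearts, both on log axes, coloured by group and named by replicate; the dashed line marks equal CPM, which is not corrected for transcript length. Control hearts lie at the lower right, 4 D55 hearts directly above them, D55 B and E further up, and D100 hearts at the upper left, above the line.

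The summed level of both chains differed far less between groups than their ratio. It was 3817 CPM ± 1498 (SD, n = 4) in Control, 7542 ± 5509 (SD, n = 6) in D55; D100 hearts averaged 2765 ± 1315 (SD, n = 6). D55 B and E reached 14881 and 14222 CPM, and without them the D55 mean was 4037 ± 1169 (SD, n = 4), with values of 2990 to 5675. The ranges of all 3 groups overlapped: Control hearts spanned 2360 to 5613 CPM and D100 hearts 1721 to 4513 CPM. The chains are similar in sequence, and kallisto divides reads that fit both. Of the estimates under 10000, 1 of 6 for Myh6 and 0 of 4 for Myh7 lay within 0.01 of a whole number, so the estimates of both chains include reads split with other sequences. A read given to the wrong chain alters the ratio and leaves the sum as it is. How far this moved the ratio was not tested.

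Hearts of the same group differed more in the chains than in most genes of a like mean level over all libraries. The genes were matched to each chain on that mean, and the same genes were used in every group. Myh6 averaged 302 CPM in D100 and Myh7 190 CPM in Control, far below their means in the other groups. In those groups the genes were therefore not matched to the chain's own level. For Myh6 the SD of log2 CPM was 0.60 in Control, 0.90 in D55 and 0.93 in D100. Of the 19 genes with a mean level over all libraries within 2-fold of Myh6, 2 had a larger SD in Control, 2 in D55 and 0 in D100. Their median SD was 0.28, 0.46 and 0.36. For Myh7 the SD was 0.33 in Control, 1.46 in D55 and 0.65 in D100. Of the 29 genes matched to it in the same way, 10 had a larger SD in Control, 0 in D55 and 4 in D100. Their median SD was 0.24, 0.46 and 0.36. With all libraries the Myh7 SD was therefore largest in D55, where the highest heart was 12.5-fold above the lowest. Without D55 B and E the D55 SD of Myh7 was 0.44 and its range 1.76-fold, beside 0.65 and 2.70-fold in the full D100 group. The D55 SD of Myh6 was then 0.52, beside 0.60 in the full Control group. B and E were the highest D55 hearts in both chains, so leaving them out had to narrow the D55 range. No D100 or Control heart was left out beside them, so these values do not decide which group varied most. Among the 4 remaining D55 hearts, 1 of the 19 genes matched to Myh6 and 3 of the 29 matched to Myh7 had a larger SD than the chain.

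Within the dose groups, 4 relations were examined over the 6 hearts of D55 and the same 4 over the 6 hearts of D100, and none of these 8 passed 0.05 after adjustment over all 8. No relation was examined in Control, whose 4 hearts fall short of the 6 required here. An r over the 4 hearts left after leaving out 2 is given only to show how far a value rested on those 2. At an unadjusted p under 0.05 there was 1 (Myh6 and the share of the most abundant genes in D55, below). Inside a group the r of Myh6 with Myh7 was above 0: Pearson's r in D55 was 0.65, with a Spearman's rho of 0.60 (exact permutation p = 0.208 and 0.242, adjusted 0.333 and 0.476). In D100 r was 0.54 and rho 0.31 (exact permutation p = 0.339 and 0.564, adjusted 0.452 and 0.714). Leaving out the 2 hearts farthest from the median of Myh6 gave an r of 0.51 over 4 D55 hearts (without B and D). It gave -0.01 over 4 D100 hearts, so the D100 value rested on B and F. The D55 value of 0.51 still held E, the heart with the highest Myh7. An r without D55 B and E was not computed. Among the 4 other D55 hearts, C had the highest Myh6 (5010 CPM) and the lowest Myh7 (665 CPM).

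The share of counts in the 10 most abundant other genes was also set against the chains, and every r with a level was below 0. For Myh6 in D55, r was -0.93 (exact permutation p = 0.0139, adjusted 0.111) and rho -0.94 (p = 0.0167, adjusted 0.133), and r was -0.92 without B and E. For Myh6 in D100, r was -0.73 (exact permutation p = 0.117, adjusted 0.233) and rho -0.71 (p = 0.136, adjusted 0.363), and r was -0.78 without E and F. For Myh7, r was -0.84 in D55 (exact permutation p = 0.0889, adjusted 0.233; rho -0.54, p = 0.297, adjusted 0.476) and -0.89 in D100 (exact permutation p = 0.0667, adjusted 0.233; rho -0.77, p = 0.103, adjusted 0.363). Without the 2 farthest hearts these became 0.39 and -0.26, so they rested on D55 B and E and on D100 E and F.

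For the ratio and this share, r was nearer to 0 than for the levels, a difference that was not tested. The r was 0.35 in D55 (exact permutation p = 0.517, adjusted 0.590; rho 0.20, p = 0.714, adjusted 0.714) and -0.13 in D100 (exact permutation p = 0.767, adjusted 0.767; rho -0.26, p = 0.658, adjusted 0.714). Without the same pairs of hearts, r was -0.79 over the 4 remaining D55 hearts and -0.75 over the 4 remaining D100 hearts. The levels and the share come from the same counts of a library, so they are not independent measures.

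Over all 16 hearts, the chains had different companions among the 8653 other genes with a mean of at least 5 CPM. Likeness was measured as Pearson's r of log2 CPM, which is a description, since hearts of a group share their treatment. With Myh6, 89 genes had an r over 0.9 and 73 an r under -0.9. With Myh7, 4 genes had an r over 0.9 and 12 an r under -0.9. The r between Myh6 and Myh7 themselves was -0.30.

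The first gene by r with Myh6 was ENSRNOG00000027891.4, at 0.97 (0.96 without D55 B and E, rank 3 by that value, and rank 87 by Spearman's rho). Its level was 20.3 CPM ± 3.23 (SD, n = 4) in Control, 20.2 ± 5.21 (SD, n = 6) in D55 but 8.42 ± 2.19 (SD, n = 6) in D100, so D55 stood at the Control level and D100 below it. The gene most opposed to Myh6 by r was ENSRNOG00000049985.2, with an r of -0.97 (rank 2 without D55 B and E, and 175 by rho), at 23.5 ± 0.714 (SD, n = 4), 22.4 ± 4.78 (SD, n = 6) and 52.0 CPM ± 7.71 (SD, n = 6) in the same order. The first gene by r with Myh7 was ENSRNOG00000018505.7, at 0.94 (0.93 without D55 B and E, rank 11 by that value, and rank 2 by rho). It stood at 18.9 CPM ± 1.83 (SD, n = 4) in Control, 34.6 ± 10.6 (SD, n = 6) in D55, then 37.8 ± 9.26 (SD, n = 6) in D100, with both doses above Control. The gene most opposed to Myh7 by r was ENSRNOG00000019975.5, with an r of -0.95 (rank 1 without D55 B and E, and 3 by rho), at 80.9 ± 4.32 (SD, n = 4), 60.4 ± 10.7 (SD, n = 6) and 57.9 CPM ± 4.32 (SD, n = 6). As these ranks differ, the exact order of the genes is not firm. In group means, these companions of Myh6 set D100 apart, and those of Myh7 set Control apart from both doses. They were picked for likeness to the chains, so their group differences carry no test, and the files do not pair their identifiers with names.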

How the data were processed

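Heart RNA of 16 rats (Control n = 4, D55 n = 6, D100 n = 6) was sequenced on a NextSeq instrument from stranded libraries of polyadenylated RNA, per the labels' protocols. The authors deposited one file of estimated counts per library; kallisto 0.43.1 and the build Rnor_6.0 are named in, and given here per, the submitters' processing notes. Not given in the sources used here: its annotation release, read filters and strand option. Groups and replicate names came from the sample titles. Members and lists were chosen with earlier results of these data known. Of the 47357 rows in the reference gene table, 0 carry an Ensembl identifier, so the 6 gene lists and 10 marker lists written by symbol could not be used.

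Estimated counts were rounded to whole numbers. edgeR 4.0.16 (R 4.3.3) was run with filterByExpr, TMM scaling and a quasi-likelihood fit with 1 coefficient per group over all 16 libraries, and p-values were adjusted by Benjamini-Hochberg over the 14175 genes tested. The SE of a fold change is its size divided by the square root of the F statistic. The ratio used CPM with 0.5 added to each chain. Correlations used exact two-sided permutation tests (SciPy 1.17.1). The like genes printed are the first in each direction by the rule set for them. Alternatives used DESeq2 1.42.0, limma 3.58.1 (voom with quality weights), other scalings and filters, a covariate, a block and left-out libraries. No libraries of a group were duplicates: chi-square per degree of freedom between them was at least 12.0.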

Additional observations from a re-analysis of the deposited data

Results flagged for a closer look

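Myh6 in D100 replicate F stood at 734 CPM, and the next highest D100 heart at 309 CPM. In CPM, not log2 values, the gap between them is 0.691 of the whole D100 range, above Dixon's limit of 0.625 for 6 samples. On the log2 scale F stood at 9.52, the next highest heart at 8.27 and the lowest at 6.89. The rule was not applied on that scale, where the gap takes less of the range. This was the shallowest library, with 4.69 M counts, and its Myh6 to Myh7 ratio of 0.194 was the highest of the group, close to the 0.189 of D100 C. Of 15 groups of values examined in this way, 1 stood out, and chance gives about 1 in 20. The part of depth in this value was not tested.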

How the results depend on the processing

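Fold changes of the chains kept their direction in all alternatives for Myh6 and Myh7 in D100 against Control (27 settings each), Myh7 in D55 against Control (27) and Myh6 between the doses (28), and the ratio did in all 3 comparisons. For the ratio this was fixed in advance wherever hearts were left out, since the groups were fully ordered. Myh6 in D55 against Control was above 0 in 23 settings and below 0 in 4; Myh7 between the doses was above 0 in 10 and below 0 in 18. Leaving out 1 library gave -4.06 to -3.33 for Myh6 and 3.48 to 3.80 for Myh7 in D100 against Control, 0.02 to 0.70 and 2.95 to 4.00 in D55 against Control, and -4.52 to -3.60 and -0.30 to 0.75 between the doses. The log2 ratio then differed by -7.53 to -7.13, -3.15 to -2.47 and -4.88 to -4.20. Without D55 B and E, Myh7 gave 2.26 in D55 against Control and 1.43 between the doses, and 2.26 and 1.27 with D100 F also left out, an alternative chosen after seeing the data. With the share of the 10 most abundant other genes as a covariate, Myh6 gave -2.69 and Myh7 4.61 in D100 against Control, and -2.46 and 1.99 between the doses. Weighted limma-voom gave 3.07 for Myh7 in D100 against Control, and -0.56 for Myh6 and 2.32 for Myh7 in D55 against Control. For these values the cause was not tested. Leaving out the 2 farthest hearts turned r to 0.39 and -0.79 for the share with Myh7 and with the ratio in D55, and to -0.0091 for the chains in D100.

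Counts of genes called set the background. For D100 against Control (621 in edgeR, 272 higher and 349 lower) they were 1172 without scaling factors (90 higher, 1082 lower), 409 without a filter, 1438 in DESeq2, 9594 in limma-voom, 1493 without D55 B and E, 2731 without D100 F too, 1407 with the covariate, and 180 to 1086 without 1 library. For D55 against Control (9 in edgeR, 1271 at an unadjusted p of 0.05) they were 5 without scaling factors, 88 in DESeq2, 522 in limma-voom, 1 in a fit of these groups alone, 14 without D55 B and E, 16 without D100 F too, 53 with the covariate, and 0 to 15 without 1 library. Between the doses (5041 in edgeR, 1944 higher and 3097 lower) they were 7016 without scaling factors (141 higher, 6875 lower), 3018 in a fit of these groups alone, 123 without D55 B and E, 342 without D100 F too, 41 with the covariate, and 1172 to 6745 without 1 library. Omitting scaling factors moved the median log2 change of all genes to -0.48, 0.20 and -0.65 in the same order, and it leaves the ratio as it is. With the replicate letter as a block, edgeR called 0 genes between the doses (5916 unadjusted), so Myh6 was no longer called (-4.02, edgeR adjusted p = 0.053); Myh7 was at 0.49, and the ratio difference was -4.52, with an SE of 0.307 within letters against 0.558 without pairing. The labels do not say that a letter links animals. Libraries of the same letter had correlations of -0.50 to 0.63, above 0.1 for 3 of 6 letters, and 1 of 6 D55 libraries matched its own letter best, so the letters were not taken as pairs.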
